A study of Mus musculus with 2 samples.

Results

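A compact group of Creb3l2 peaks lies on mouse chromosome 4, in a stretch that had been put forward as the Casz1 locus. The group mixes small peaks with the strongest of the list. Its members are the Creb3l2 peaks with a summit in a fixed stretch of 90 kb, and they number 15 of the 6484 peaks in the list. No XBP1 peak, of 258, had its summit there. The stretch itself was chosen by measured values: in earlier results of these data its peaks had stood out by their density and their scores. The number of peaks, their tags, scores and fold enrichments are therefore given as a description and were not tested.

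Both libraries came from AtT-20 cells, a corticotrope line derived from a mouse pituitary tumor. Creb3l2 was recovered with the FLAG M2 antibody from cells that carry a retroviral transgene for the cleaved, active form with a 3xFLAG tag. These cells are a pool of many resistant colonies and not 1 clone, and they were at passage 7. AtT-20 cells that lack the transgene served as control, through a FLAG ChIPseq profile that had been made for an earlier study and not in the same experiment. For XBP1, an antibody against the endogenous protein was used on cells that carry no transgene, at passage 17, and an IgG profile of the earlier study served as control. Each factor has a single library made from pooled ChIP DNA, and no value carries an error between replicates. All Creb3l2 peaks together held 882956 tags and all XBP1 peaks 18587.

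Creb3l2 is a bZIP transcription factor of the OASIS family. It is made as a protein of the endoplasmic reticulum membrane, and cleavage releases its cytoplasmic part, which enters the nucleus and binds DNA. XBP1, also a bZIP factor, is the classical effector of the IRE1 branch of the unfolded protein response, and both factors bind elements with an ACGT core. Casz1 encodes a zinc finger transcription factor related to castor of Drosophila, and is best known for its roles in development of the heart, of blood vessels and of the retina.

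The submitters' processing notes give mm9 as the build of both lists, and all positions here are in mm9. The genome and annotation at hand were of GRCm38, whose coordinates differ. The name Casz1 was therefore not checked, and whether the summits fall on its exons or in its introns, and which sequences lie under them, was not analysed here. The peaks are named below by their position only, and as the chromosome 4 group.

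The 15 peaks fell into a compact group of 13 and a pair apart from it. The 13 peaks ran from 148302746 to 148327716, a stretch of 24971 bp, of which 16306 bp (65.3%) lay inside a peak. The pair lay upstream, with summits at 148242192 and 148246062, and was separated from the 13 by 56374 bp without a peak. Beyond the group the list was empty for 275136 bp on the lower side and for 145856 bp on the higher side. The first peak on the lower side had its summit at 147965487, with 233 tags and a fold enrichment over control of 6.68. The first one on the higher side, at 148474048, had 77 tags and was enriched 3.8-fold over control. Both of these flanking peaks lay below most of the 13 in tags and in fold enrichment.

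Within the compact group the peaks lay close together. Of its 12 gaps between adjacent peaks, 7 were under 500 bp and 3 were over 1000 bp, with a median of 453 bp and a range from 36 to 2649 bp. The smallest gap, of 36 bp, lay between the peaks with summits at 148310321 and 148311117. Adjacent summits were 796 to 4132 bp apart, with a median of 1628.5 bp. Where peaks lie so close, the number of peaks also depends on how the caller split the signal.

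The pair apart from the compact group was of ordinary strength. The peak at 148242192 had 147 tags and was enriched 3.55-fold. The peak at 148246062 had 68 tags and was enriched 4.11-fold. Both fold enrichments were below 4.25, the median of the 6469 Creb3l2 peaks outside the group, and all 13 peaks of the compact group were above it.

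The compact group opened with 2 very strong peaks. The peak from 148302746 to 148303902, with its summit at 148303419, had 563 tags (95% exact Poisson interval 517 to 611) and was enriched 26.41-fold. The next, from 148306552 to 148308007, had 914 tags (856 to 975) and was enriched 26.01-fold. These intervals cover counting error only, and they take the tag values as unscaled counts of independent tags, which the sources do not state. The peaks differed in tags beyond that error, while their fold enrichments were nearly the same and carry no error of their own.

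A run of 3 peaks of rising strength followed. The peak at 148308714 had 68 tags (52.8 to 86.2) and was enriched 6.64-fold. The peak at 148310321 had 86 tags (68.8 to 106) and was enriched 9.95-fold, just short of 10. The peak at 148311117 had 189 tags (163 to 218) and was enriched 17.25-fold, and its tags were beyond the counting error of the other two.

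The strongest peak of the list came next. It ran from 148311972 to 148313780, with its summit at 148312963, had 1275 tags (1206 to 1347) and was enriched 31.59-fold, the highest in both. Its tags per length were 704.8 per kb, against a median of 117.6 per kb over the peaks outside the group. The Poisson interval of its tags did not reach that of the peak with 914 tags.

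Of the 3 peaks beyond it, 2 were moderate and the last was strong. The peak at 148315467 had 211 tags (183 to 241) and was enriched 11.25-fold. The peak at 148317058 had 247 tags (217 to 280) and was enriched 12.74-fold. The intervals of these 2 peaks overlap, so their tags cannot be ordered. The peak at 148318523, of the median length of the 15 members, had 437 tags (397 to 480) and was enriched 29.6-fold, the second highest of the list.

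The last 4 peaks comprised 2 small and 2 wide ones. The peak at 148320173 had 90 tags (72.4 to 111) and was enriched 6.37-fold. The peak at 148321227 had 73 tags (57.2 to 91.8) and was enriched 5.37-fold, the lowest of the 13. The tag intervals of these 2 peaks overlap each other and those of the other small peaks, with 68 and 86 tags. The wide peak from 148321831 to 148324126 had 341 tags (306 to 379) and was enriched 7.7-fold. The other wide one, from 148325310 to 148327716, had 664 tags (614 to 716) and was enriched 14.07-fold.

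**Figure D1:**
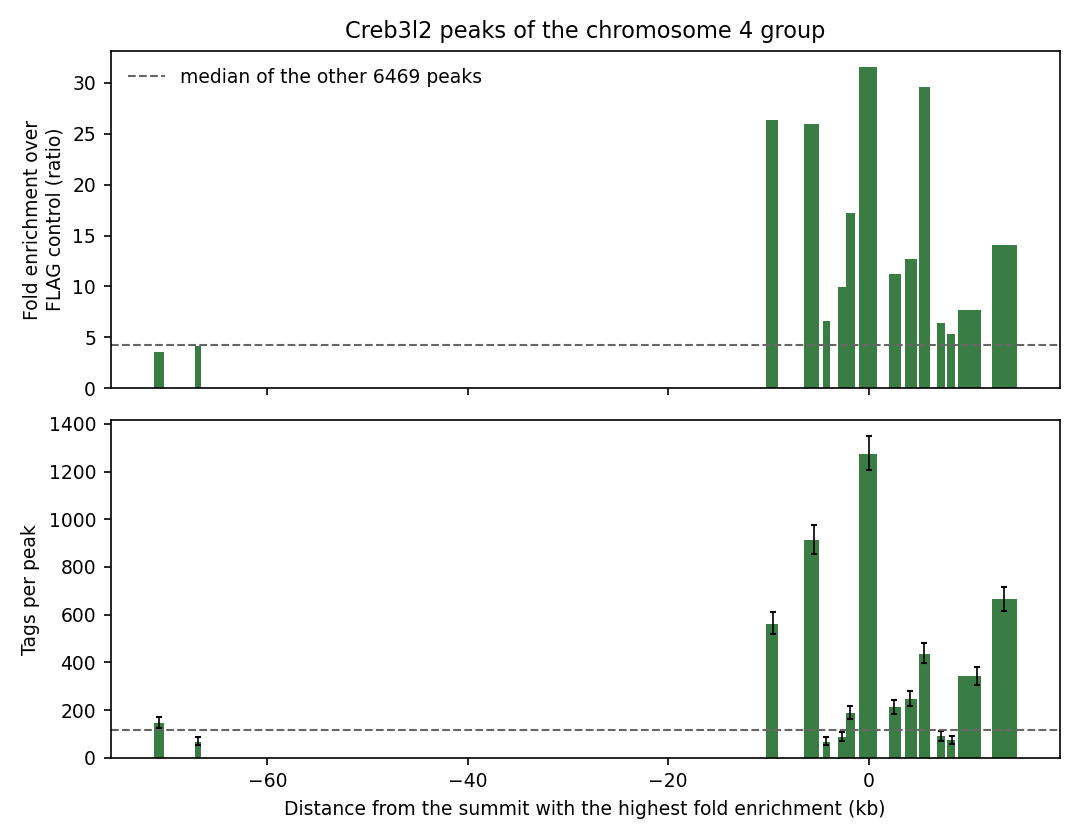
Fold enrichment over the FLAG control (upper panel, ratio) and tags per peak (lower panel) of the 15 Creb3l2 peaks, by distance in kb from the summit with the highest fold enrichment. Each bar spans the peak, error bars are 95% exact Poisson intervals of the tags at the summit, and dashed lines are the medians of the other 6469 Creb3l2 peaks (4.25 and 115 tags); the pair at the left lies below the fold enrichment line and the 13 others above it.

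Peaks at or above a fold enrichment of 10 and peaks below it came in blocks along the compact group. From the lower to the higher coordinate, 2 strong peaks were followed by 2 weaker ones, 5 strong ones in a row, 3 weaker ones and 1 strong one. Fold enrichments ranged from 5.37 to 31.59 within 24971 bp, with quartiles of 7.7 and 26.01 and a median of 12.74. The 5 peaks with the most tags held 3853 of the 5373 tags of all 15 members (71.7%). The 15 peaks held 0.609% of all tags in Creb3l2 peaks (95% exact binomial interval 0.592 to 0.625%), on 0.271% of the length of all Creb3l2 peaks.

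Lengths and shapes were closer to those of the list. The median length was 1063 bp, from 671 to 2407 bp, against 950 bp over the other peaks, and 9 of the 15 were longer than that. The wide peaks of 2296 and 2407 bp were the only members over 2200 bp, a length that 48 of the other 6469 peaks exceeded. Summits sat near the middle of the peaks, at a median of 51.9% of the length (counted from the lower coordinate), as in the other peaks, where the median was 50.4%. The members ranged from 36.0% to 83.1%, and the peak of 2296 bp, at 83.1%, had its summit farthest from the middle. Of the other peaks, 15 (0.232%) had their summit beyond 80% of the length.

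The compact group held the 4 peaks with the highest fold enrichment of the list, 5 of the top 10 and 6 of the top 20. By tags it held 4 of the top 10 and the same number of the top 20, at ranks 1, 2, 5 and 9. A fold enrichment of at least 10 was found in 8 of the 15 peaks, against 1.22% of all 6484 Creb3l2 peaks. At least 5 was reached by 13 of the 15, against 25.5% of the list, and at least 20 by 4 of the 15, against 0.0771%. Since strength was a reason to pick the stretch, nothing is read from these shares. By tags per kb the group held ranks 1, 2, 3 and 5. The fourth by tags per kb was a peak on chromosome 5 from 115607832 to 115609414, enriched 12.2-fold with 695 tags.
The significance score of the lists (the negative log10 of the p-value, multiplied by 10) was highest, at 3136.05, for the peak at 148303419. The 2 members with 914 and 1275 tags both had exactly 3100, a value that recurred in 2 XBP1 peaks. So exact a repeat may be a fixed value rather than a measured score, which the sources do not state. The score was therefore not used to order these 2 members and the peak at 148303419, which had 563 tags. Below 3100, the next members had scores of 2378.31 and 2169.81. Among the other 451 Creb3l2 peaks of chromosome 4, the highest fold enrichment was 11.15 and the median 4.25.

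**Figure D2:**
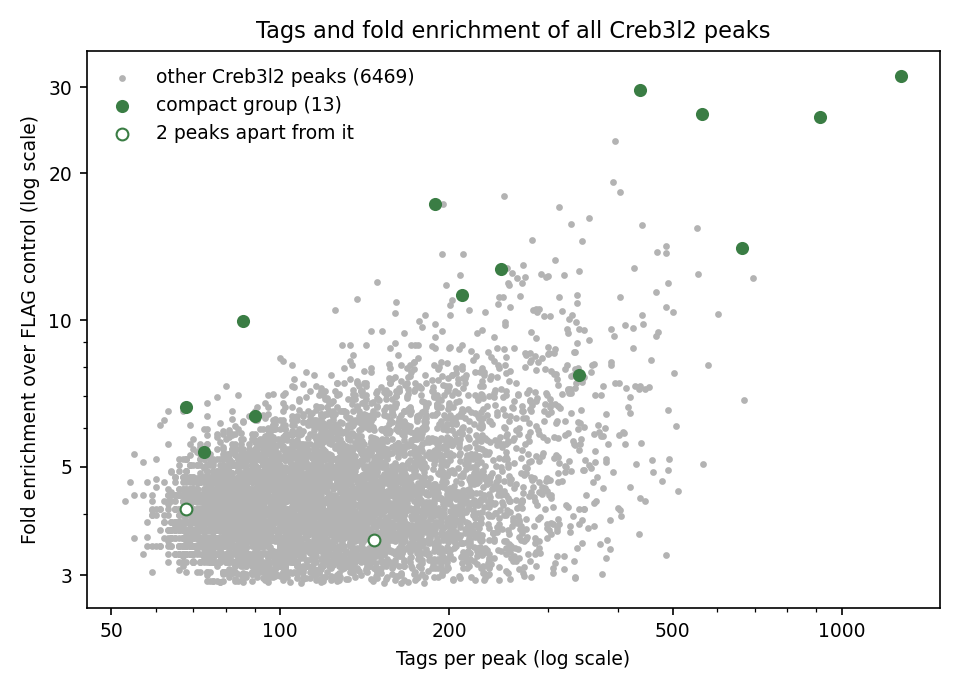
Tags per peak (horizontal, log scale) and fold enrichment over the FLAG control (vertical, log scale) of all Creb3l2 peaks: grey points are the 6469 peaks elsewhere, filled green points the compact group of 13, and open points the pair apart from it. The 4 highest green points lie above every grey point, whose highest fold enrichment is 23.23.

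By fold enrichment, the small peaks of the compact group stood high for their number of tags. Of its 13 peaks, 4 had between 60 and 100 tags, with fold enrichments of 5.37, 6.37, 6.64 and 9.95. Their significance scores, in the same order, were 63.15, 100.64, 63.88 and 103.19. These lie on both sides of 85.71, the median of all peaks outside the group, whose median number of tags was 115. No median score was computed for outside peaks with between 60 and 100 tags. Outside the group, 2490 peaks had between 60 and 100 tags, and their median fold enrichment was 3.98, with quartiles of 3.59 and 4.51. The highest value among those 2490 was 8.36, below the 9.95 of the peak at 148310321. The member at 6.64 was equalled or exceeded by 10 of them, the one at 6.37 by 20 and the one at 5.37 by 140. The upstream peak with 68 tags, at 4.11, lay within the quartiles. Since the stretch was chosen by measured values of its peaks, nothing is read from these comparisons.

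Strong Creb3l2 peaks elsewhere had few neighbours, as had most peaks of the list. Counted towards higher coordinates only, 5359 of the 6469 peaks outside the group had no further Creb3l2 summit within 25 kb. Standing alone is therefore not read as a trait of strong peaks. Of the 71 other peaks with a fold enrichment of at least 10, 43 had no further Creb3l2 summit within 25 kb, 23 had 1 and 5 had 2, the most seen. Each of the 8 strong peaks of the compact group had 12, because all 13 summits of the group lie within 23064 bp. The stretch was picked for its density of peaks, so nothing is read from these counts of neighbours. The 29 weaker peaks that lay within 25 kb of a strong peak elsewhere had a median fold enrichment of 4.19, from 2.98 to 7.37, close to the list as a whole. In the compact group the 5 peaks under 10 had a median of 6.64, from 5.37 to 9.95. These ranges overlap, and with 1 library the difference was not tested. The stretch was chosen by measured values of its peaks, so nothing is read from this difference either.

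**Figure D3:**
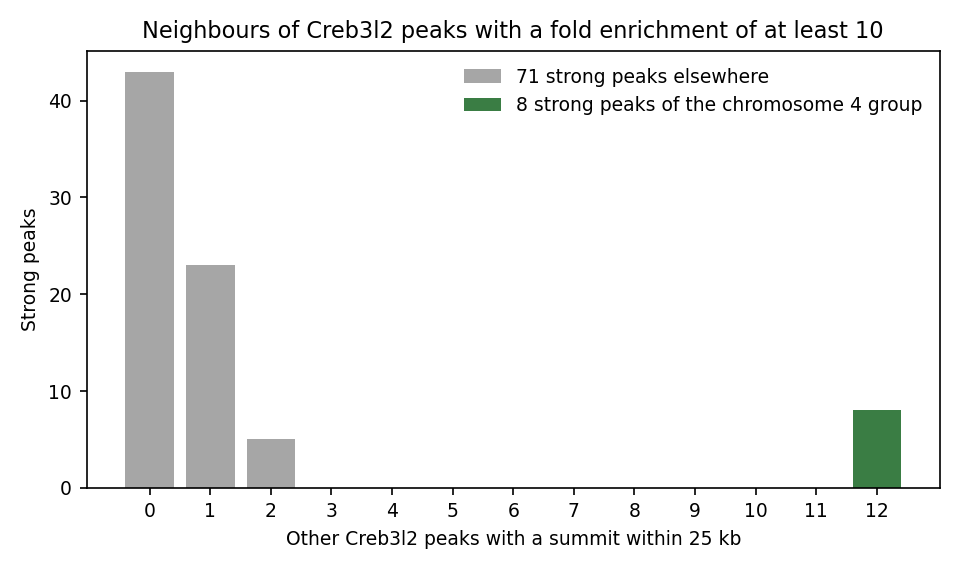
Number of strong Creb3l2 peaks, those with a fold enrichment of at least 10 (vertical), by the number of further Creb3l2 peaks with a summit within 25 kb (horizontal). Grey bars are the 71 strong peaks elsewhere, with 0 to 2 neighbours, and the green bar is the 8 strong peaks of the chromosome 4 group, with 12 each. The stretch was picked for its density of peaks, so nothing is read from the contrast.

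The 5 strongest peaks outside the group were single sites or had few neighbours. The highest, on chromosome 1 from 159436246 to 159437475, had 394 tags, a fold enrichment of 23.23 and no neighbour within 25 kb. The next, on chromosome 10 from 77084359 to 77085708, had 392 tags, a fold enrichment of 19.13, 2 neighbours and an overlapping XBP1 peak. The rest, on chromosomes 17, 1 and 8, had fold enrichments of 18.3, 17.91 and 17.25. The peaks at 17.91 and 17.25 also overlapped an XBP1 peak, and those at 23.23 and 18.3 did not. The highest fold enrichment of the chromosome 4 group was 1.36 times the highest elsewhere.

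The 2 other dense stretches described here held peaks of ordinary strength. Among windows of 100 kb that start at each summit outside the group, 2 tied for the most summits, with 9 each. The one described, the first by chromosome and position, lay on chromosome 11, with summits from 68821909 to 68912304. Its peaks had 86 to 335 tags and fold enrichments of 2.96 to 5.91, with a median of 3.58. The densest window of 25 kb outside the group, on chromosome 8, held 5 summits from 124103223 to 124114263, with 83 to 206 tags. Fold enrichments there were 3.56 to 6.16, with a median of 4.65. None of these 14 peaks reached a fold enrichment of 10. These windows were picked for density alone, and the chromosome 4 stretch for both density and strength, so nothing is read from the difference.

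XBP1 peaks were far from the chromosome 4 group. Of the 16 XBP1 peaks on the chromosome, the nearest on the lower side, from 137859948 to 137860880, was 10.4 Mb away, had 99 tags and was enriched 5.47-fold. The nearest on the higher side, from 152162318 to 152163356, was 3.83 Mb away, had 42 tags and was enriched 6.71-fold. Among the 71 strong Creb3l2 peaks elsewhere, 15 overlapped an XBP1 peak (21.1%), against 125 of all 6469 peaks outside the group (1.93%). None of the 8 strong peaks of the chromosome 4 group did, which was known when the stretch was chosen. These 8 peaks are adjacent sites in 1 library, and the shares were not compared by a test. The XBP1 list holds only peaks past its threshold, so weaker XBP1 signal at these sites would not be seen. The XBP1 library had fewer tags in peaks, but its list also has fewer peaks. The authors report fewer and shorter sequencing reads for XBP1 than for FLAG-Creb3l2. The libraries also differ in cells, since the chromosome 4 group was called in the tagged cells against a control from cells without the tag, and binding cannot be told apart from a difference in copy number of the stretch between those cells.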

How the data were processed

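ChIPseq was analysed from 1 pooled library for FLAG-Creb3l2 and 1 for XBP1 in AtT-20 cells. Per the labels, reads were processed with Bowtie, MACS and HOMER on mm9, with versions not given in the sources used here for MACS and HOMER. Peak calling by the authors used a p cutoff that corresponds to the smallest deposited scores (50 and 50.01), and the paired-end option for Creb3l2. The deposited tags are whole numbers and were read here as counts per peak that are not scaled for depth. The sources do not state this, nor whether reads or read pairs were counted. The deposited significance score, headed P-value, is −log10 of p multiplied by 10. Fold enrichment, also deposited, is the MACS ratio over control. Members were the Creb3l2 peaks with a summit in the stretch of 90 kb, and they and all comparisons were chosen with earlier results of these data known.

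Counts, medians, quartiles, gaps, ranks and overlaps (minimum 1 bp) were computed. Exact Poisson and binomial intervals cover counting error only. With no replicates no test was made. Genes to name were to be Casz1, those at the peaks and the nearest ones. The placement against exons and coding exons and the search for ACGT needed mm9 sequence or annotation and were not run. Python 3.11.15, pandas 2.3.3, numpy 2.4.6, SciPy 1.17.1 and matplotlib 3.10.9 were used.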

Additional observations from a re-analysis of the deposited data

How the results depend on the processing

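Of 20 alternatives laid out, 9 were run, and the other 11, on exons and on ACGT, were not, because no mm9 reference was used here. No paired analysis was possible because there is a single library of each kind, and none could be left out. The number of Creb3l2 peaks in the stretch was 11 with a score of at least 100 and 9 with at least 200, and was 15 when any overlap with the stretch was counted. Their median fold enrichment of 11.25 became 14.07 with a score of at least 100 and 17.25 with at least 200, by construction, since weaker peaks are left out. It was 12.74 without the 2 upstream peaks, an alternative chosen after seeing the data, and that choice left the number at a fold enrichment of at least 10 at 8. That number became 13 with a threshold of 5 and 4 with a threshold of 20. No XBP1 peak was found with any overlap or with the stretch widened by 10000 bp on each side. Depth limits the order of peaks by tags where their intervals overlap, as for the small peaks and for those with 211 and 247 tags.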
